A study of Mus musculus with 12 samples.

Results

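Intermediate filaments are the rope-like polymers of the cytoskeleton and of the inner face of the nucleus, and 7 of their genes were followed here in mouse skeletal muscle: Des (desmin), Vim (vimentin), Nes (nestin), Lmna (lamins A and C), Lmnb1 (lamin B1), Krt8 and Krt18 (keratins of simple epithelia). Every probe set whose platform annotation carried 1 of these symbols was taken, which gave 10 of the 12422 probe sets on the array that were not controls, and each was kept apart. The 7 genes are among 8251 named by a probe set with a single symbol. Des, Vim, Lmnb1 and Krt8 had 1 probe set each, and Nes, Lmna and Krt18 had 2 each. Lmna probe sets are told apart by their suffix, _s_at (which the manufacturer uses for probes shared by several transcripts) and _at.

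Total RNA had been hybridised to 12 arrays, 3 in each of 4 groups of mice aged 3 weeks. The Dysf -/- groups were TA and QF muscle of C57BL/10-SJL.Dysf mice, in which the SJL dysferlin mutation was bred into C57BL/10, and the control groups were TA and QF muscle of Dysf +/+ C57BL/10 mice. From knowledge of the study, QF is the proximal quadriceps femoris and TA the distal tibialis anterior. Dysferlin, a membrane protein, helps to reseal the injured surface of muscle fibres, and the title of the series asks whether its loss changes how proximal and distal muscles differ. The allele is present in the whole animal and not in the fibre alone, and no probe set was named for Dysf in the annotation used. Nothing states that replicates came from separate mice, and the p-values cover the spread from array to array, which may be technical.

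In a muscle fibre, desmin filaments tie neighbouring Z-discs to each other, to the surface membrane and to the nuclei, and nestin co-assembles with other intermediate filament proteins and persists in adult fibres at the neuromuscular and myotendinous junctions. Vimentin is the filament of fibroblasts, endothelium, leukocytes and young myoblasts. Lamins A and C form, with the B-type lamins, the meshwork under the nuclear membrane, and mutations of human LMNA and DES cause muscle disease. Keratins 8 and 18 pair with each other and are found mainly in simple epithelia, with low amounts described in muscle.

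Levels are log2 of quantile normalized intensity with a floor at log2 4.53, below which values were not separated. A probe set was tested where it was above that floor on at least 3 arrays, and 7 of the 10 were. Differences are on the log2 scale with the standard error (SE) of a limma fit to all 12 arrays, for 3 arrays against 3, and a difference was called where limma's p-value with Benjamini-Hochberg adjustment over all 10331 tested probe sets was under 0.05. Arrays are listed in the order of replicates 1, 2 and 3.

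Replicate 2 of QF was unlike the rest in both genotypes, with median correlations to the other arrays of 0.866 and 0.876, against 0.926 to 0.959 for the other 10. All 13 probe sets of 9 muscle fibre genes were above the floor on some array, as were all 13 fibroblast, 12 endothelial and 6 mural ones, so this does not tell muscle from the other cells within it. Summed over that list, normalized intensity was 101198 to 110221 in Dysf -/- TA, 114877 to 121947 in control TA, 108198 to 113443 in Dysf -/- QF and 115674 to 119102 in control QF. In whole muscle, fewer cells of a type and less RNA per cell cannot be told apart.

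Nes and Lmna were the members that differed, and they did so between the muscles of control mice: both were higher in control TA than in control QF, Nes by 1.91-fold and Lmna by 1.83-fold on 1 of its probe sets. These were 2 of the 7 tested member probe sets, while 0.736% of all tested probe sets were called in that comparison and 0.407% were called higher in TA (9.86% had an unadjusted p under 0.05). The members were chosen with earlier results of these data known, so this contrast is not a test of the family. In Dysf -/- mice TA was 1.21-fold higher for Nes and 1.22-fold higher for Lmna, and neither passed. No member passed between the genotypes in either muscle. Both genes lie on chromosome 3 (GRCm38.p6), Nes at chr3:87971093-87980451 on the plus strand and Lmna at chr3:88481148-88509932 on the minus strand.

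Because these are the members that moved, the 250 bases before their annotated start sites are shown, from RefSeq on GRCm38.p6, on the strand of each gene and read toward the start. The table holds windows at 2 internal Lmna start sites, and both are given. Neither is the 5′ end of the gene span above, and no window at that end was used here. Capitals mark matches on either strand to 5 motifs. These were the E-box of myogenic factors, spelled CANNTG, the GC box, spelled GGGCGG, the CCAAT box, named by its letters, the TATA box, spelled TATAAA, and the AP-1 site, spelled TGANTCA.
Nes, chr3:87970843-87971092, plus strand: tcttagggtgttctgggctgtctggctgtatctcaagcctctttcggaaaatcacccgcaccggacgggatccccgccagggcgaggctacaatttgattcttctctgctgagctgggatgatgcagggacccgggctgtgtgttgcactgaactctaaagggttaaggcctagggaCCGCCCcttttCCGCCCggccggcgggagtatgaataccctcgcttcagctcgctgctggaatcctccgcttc
Lmna start 1, chr3:88503353-88503602, minus strand: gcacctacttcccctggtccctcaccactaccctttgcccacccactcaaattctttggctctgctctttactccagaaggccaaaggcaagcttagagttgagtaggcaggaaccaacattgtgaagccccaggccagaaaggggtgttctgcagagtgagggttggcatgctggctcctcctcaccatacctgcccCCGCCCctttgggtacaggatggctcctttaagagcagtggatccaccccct
Lmna start 2, chr3:88493313-88493562, minus strand: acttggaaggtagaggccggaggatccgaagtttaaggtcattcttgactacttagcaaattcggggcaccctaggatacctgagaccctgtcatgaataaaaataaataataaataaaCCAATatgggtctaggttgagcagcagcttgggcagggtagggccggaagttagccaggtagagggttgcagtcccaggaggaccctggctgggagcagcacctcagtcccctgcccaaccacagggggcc

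The Nes window held 2 GC boxes on the opposite strand (printed as CCGCCC), starting at -73 and -62 from the start site. The first Lmna window held 1, at -52, and the second held 1 CCAAT, at -131. None of the 3 windows held the letters of an E-box, a TATA box or an AP-1 site. Over all 32851 windows of that length, 66.2% held the E-box, 32.7% the GC box, 33.8% CCAAT, 12.4% TATAAA and 6.75% the AP-1 site. The motifs do not overlap in these windows, and a match is a description of the letters only.

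Nes encodes nestin, a large filament protein of immature and junctional muscle. On the probe set above the floor its level was 8.51, 8.35 and 8.26 in Dysf -/- TA and 8.55, 8.85 and 8.85 in control TA. It was 8.21, 8.09 and 8.01 in Dysf -/- QF and 8.09, 7.61 and 7.75 in control QF. Every TA array was above every QF array, and the 4 groups kept the order control TA, Dysf -/- TA, Dysf -/- QF, control QF from high to low. Of the neighbours in that order, control TA and Dysf -/- TA did not overlap, nor did Dysf -/- TA and Dysf -/- QF, while the QF groups overlapped in the control array at 8.09.

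In Dysf -/- mice TA minus QF of Nes was 0.27 ± 0.18 (95% interval -0.11 to 0.66, limma adjusted p = 0.897). In control mice it was 0.93 ± 0.18 (interval 0.54 to 1.32, limma adjusted p = 0.0317). The difference between these values is the interaction, -0.66 ± 0.25, with an unadjusted p of 0.0225 and a limma adjusted p of 1.00, so the muscle difference was not shown to depend on genotype. Dysf -/- minus control was 0.28 ± 0.18 in QF (adjusted p = 0.954) and -0.37 ± 0.18 in TA (adjusted p = 1), by limma. The TA groups did not overlap for Nes, as for 6.87% of all tested probe sets with lower values in Dysf -/- TA. The other Nes probe set was at the floor on all 12 arrays, with deposited intensities of 7.2 to 23.1, and gave no comparison.

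Lmna encodes the A-type lamins, which carry the load on the nucleus in contracting fibres. On the _s_at probe set its level was 10.47, 10.21 and 10.13 in Dysf -/- TA and 10.46, 10.53 and 10.33 in control TA. It was 10.12, 9.83 and 10.00 in Dysf -/- QF and 9.83, 9.46 and 9.41 in control QF. The groups stood in the same order as for Nes, with all TA arrays above all QF arrays. The TA groups overlapped, the Dysf -/- TA and Dysf -/- QF groups were separated by a lowest TA level of 10.13 and a highest QF level of 10.12, and the QF groups met at 9.83.

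TA minus QF was 0.29 ± 0.15 in Dysf -/- mice (95% interval -0.03 to 0.61, limma adjusted p = 0.897) and 0.87 ± 0.15 in control mice (interval 0.55 to 1.19, limma adjusted p = 0.0133). The interaction was -0.58 ± 0.21, with an unadjusted p of 0.0148 and a limma adjusted p of 1.00. Dysf -/- minus control was 0.41 ± 0.15 in QF (interval 0.09 to 0.73, limma adjusted p = 0.473) and -0.17 ± 0.15 in TA (adjusted p = 1). The QF value had an unadjusted p of 0.0152, the smallest of the 7 members, and 6.77% of all probe sets had an unadjusted p under 0.05 there. The comparisons share the control QF arrays, the lowest group for both genes, so these values are not independent of each other.

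The calls of both genes rested on few arrays. Without the control QF array numbered 2, the lowest of that group for Nes, TA minus QF in control mice was 0.83 for Nes (limma adjusted p = 0.108) and 0.82 for Lmna (adjusted p = 0.0582). Without both QF arrays numbered 2 these adjusted p-values were 0.0861 and 0.0547, with the same differences. Leaving out control TA arrays 1, 2 and 3 in turn gave limma adjusted p-values of 0.0662, 0.209 and 0.177 for Nes and 0.0662, 0.0907 and 0.0473 for Lmna. Leaving out control QF array 3 gave 0.0509 for Nes and 0.0371 for Lmna, and leaving out Dysf -/- TA arrays 1, 2 and 3 gave 0.0529, 0.0657 and 0.0604 for Nes.

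The Lmna _at probe set did not follow the _s_at one. Its level was 8.35, 8.12 and 8.30 in Dysf -/- TA and 8.16, 7.93 and 8.31 in control TA. It was 8.36, 8.88 and 7.996 in Dysf -/- QF and 8.11, 8.71 and 7.90 in control QF, so the highest levels were those of the 2 QF arrays numbered 2. TA minus QF was -0.15 ± 0.25 in Dysf -/- mice and -0.11 ± 0.25 in control mice (95% interval -0.65 to 0.44), and Dysf -/- minus control was 0.17 ± 0.25 in QF and 0.13 ± 0.25 in TA. None passed, with limma adjusted p-values of 0.902 or more.

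Within each array, the Lmna _s_at level minus the _at level was 2.16 ± 0.27 in TA and 1.45 ± 0.49 in QF (SD, n = 6 arrays each, log2). The 6 TA arrays ran from 1.83 to 2.60 and the 6 QF arrays from 0.75 to 2.00, with 0.95 in Dysf -/- mice and 0.75 in control mice on the QF arrays numbered 2. The other QF arrays ran from 1.51 to 2.00 and reached into the TA range. This quantity was chosen after the values had been seen and was not tested, and which probe set follows the A-type lamin transcripts cannot be told from these files.

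**Figure D1:**
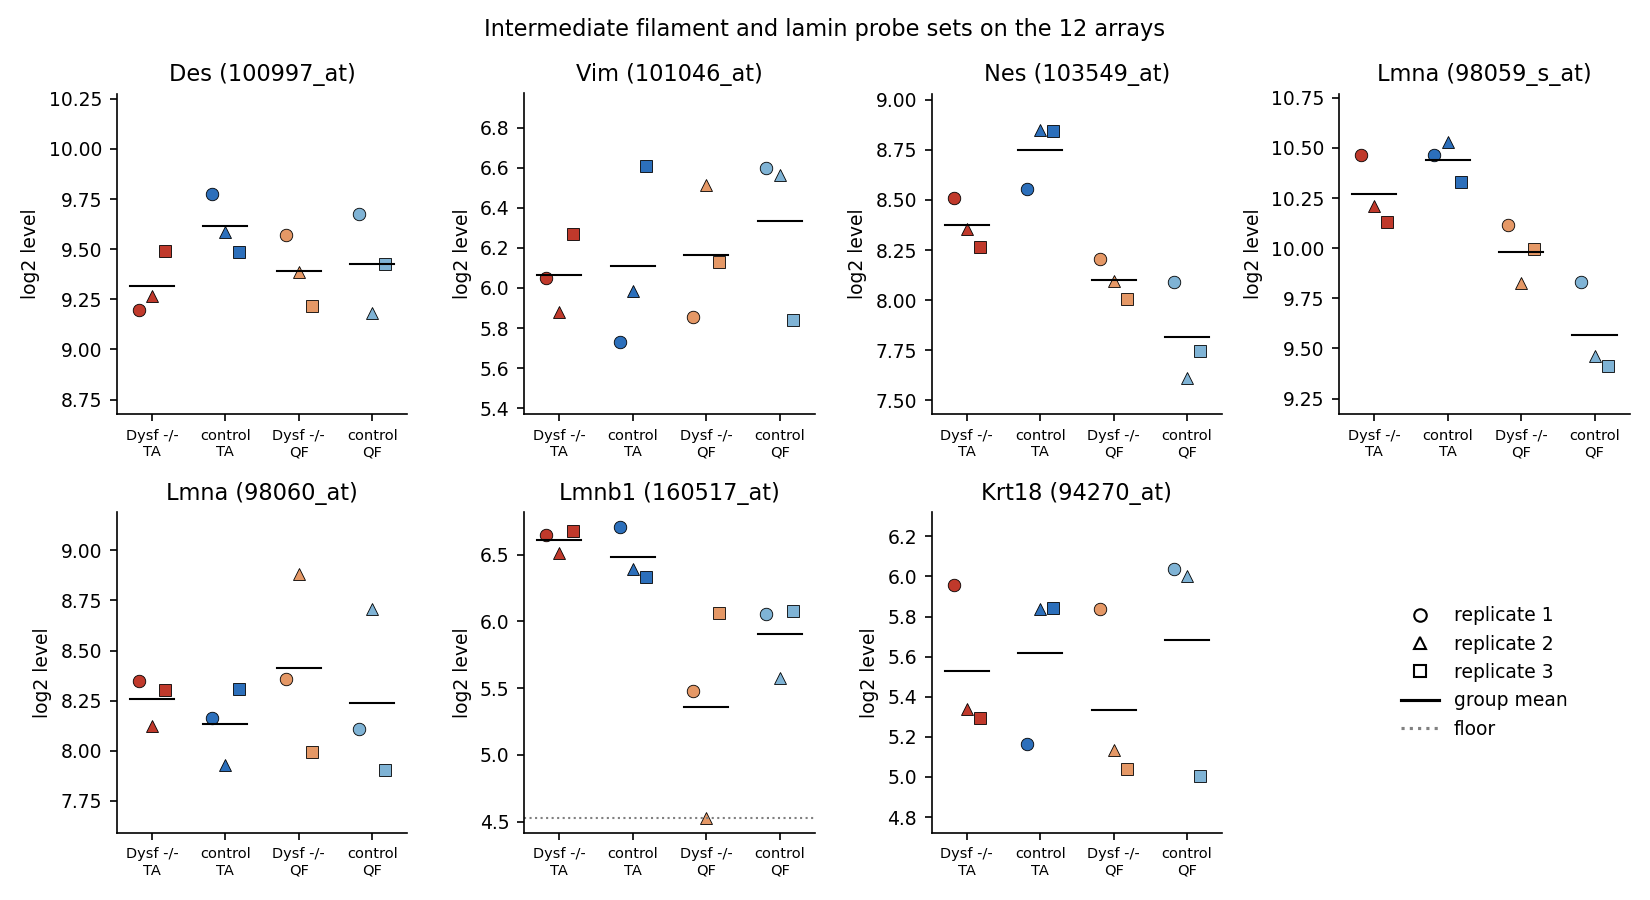
Levels (log2 intensity, y axes with their own ranges) of the 7 tested probe sets on the 12 arrays by group; symbols give the replicate number, horizontal lines the group means, and the dotted line the floor. For Nes and Lmna _s_at all TA arrays lie above all QF arrays, and for Lmna _at the QF arrays numbered 2 are the highest.

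Nes and Lmna _s_at ran together over the arrays, with a Pearson r of 0.93 over 12 arrays. The points share muscle, genotype and hybridisation, and the r of the deviations from the group means was 0.68. Among all tested probe sets of other genes, Lmna was the second most like Nes. The most like Nes was Atp5mpl (r = 0.934), a small subunit of the mitochondrial ATP synthase, and the third was Alas1 (r = 0.925), the first enzyme of haem synthesis outside red cells. For Lmna _s_at the 3 were Alas1 (0.928), Nes (0.927) and Wdr1 (0.894), an actin-disassembly factor. Lmna _at was most like Ptprs (0.956), Erdr1 (0.940) and Nsdhl (0.939). Lmnb1 was most like Gosr2 (0.957), Eral1 (0.944) and Faf1 (0.921), Des like Rbms1 (0.869), Creb1 (0.841) and Prcc (0.827), Vim like Gnao1 (0.866), Mrpl50 (0.845) and Pik3c2a (0.843), and Krt18 like Stac (0.905), Cryge (0.896) and Ckmt1 (0.884), each as a Pearson r over 12 arrays.

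**Figure D2:**
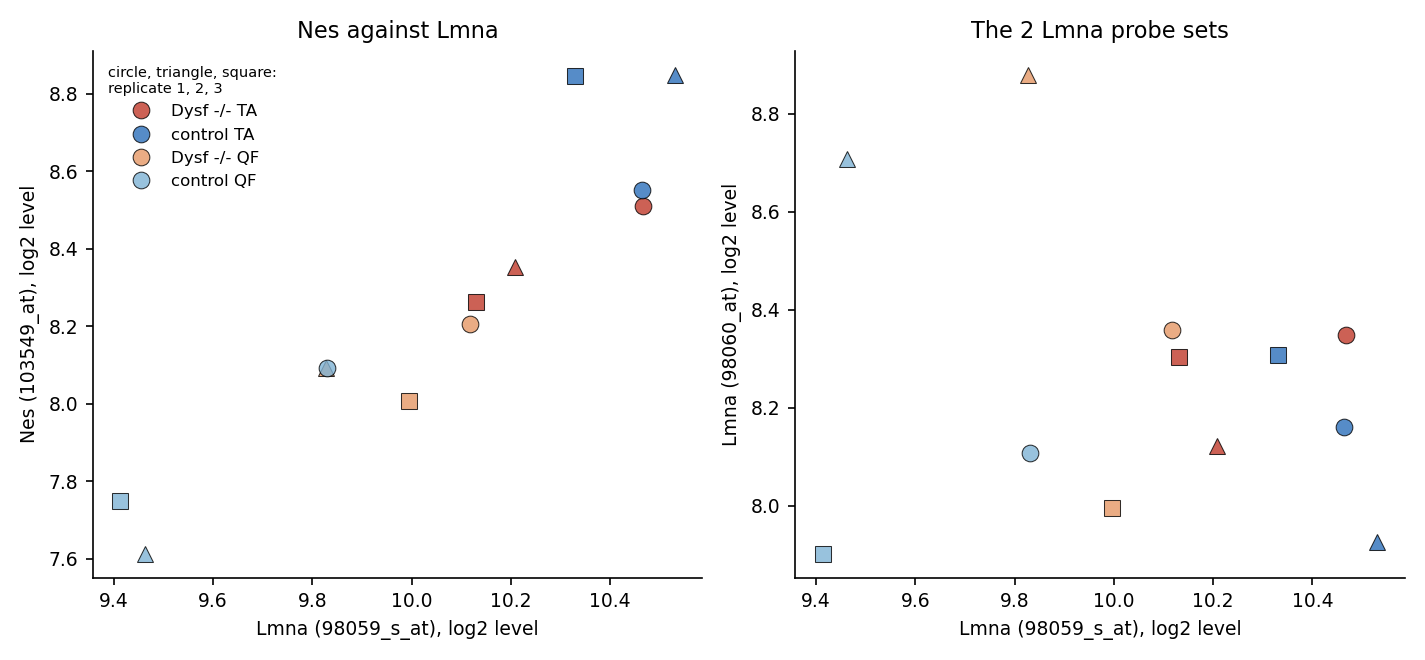
Left, Nes against Lmna _s_at; right, Lmna _at against Lmna _s_at; log2 levels on both axes, 1 point per array, colours for groups and symbols for replicate numbers (in the left panel Dysf -/- QF 2 lies under control QF 1). The left points rise together (r = 0.93), and the right points do not (r = -0.24).

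Lmnb1 encodes lamin B1, a B-type lamin of nearly all nuclei that is abundant in dividing cells. Its level was 6.65, 6.51 and 6.67 in Dysf -/- TA and 6.71, 6.39 and 6.34 in control TA. It was 5.48, 4.53 and 6.06 in Dysf -/- QF and 6.06, 5.58 and 6.08 in control QF, where the 4.53 of Dysf -/- QF array 2 is the floor. All TA arrays were above all QF arrays, whereas the genotypes overlapped within each muscle. TA minus QF was 1.26 ± 0.38 in Dysf -/- mice (95% interval 0.43 to 2.08, unadjusted p = 0.00583, limma adjusted p = 0.484) and 0.58 ± 0.38 in control mice (limma adjusted p = 0.663). The size in Dysf -/- mice rests in part on the array at the floor, which lowers the QF mean and so enlarges the difference. Over 22 alternatives this difference ran from 0.84 to 1.61, and no difference of Lmnb1 passed. Groups without overlap and with TA higher were seen for Nes, for Lmna _s_at and for Lmnb1 in both genotypes, that is 3 of 7, against 5.71% of all tested probe sets in Dysf -/- mice and 8.16% in control mice. Here too the members had been chosen with earlier results of these data known.

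Des encodes desmin, the main intermediate filament of the mature fibre. Its level was 9.20, 9.27 and 9.49 in Dysf -/- TA and 9.77, 9.59 and 9.48 in control TA. It was 9.57, 9.39 and 9.22 in Dysf -/- QF and 9.68, 9.18 and 9.42 in control QF. All groups overlapped with each other. Dysf -/- minus control was -0.30 ± 0.16 in TA (95% interval -0.64 to 0.05) and -0.04 ± 0.16 in QF (interval -0.38 to 0.31). TA minus QF was -0.07 ± 0.16 in Dysf -/- mice and 0.19 ± 0.16 in control mice. None passed, with limma adjusted p-values of 0.719 or more, and Des had the smallest spread over all 12 arrays of the 7 tested members (SD 0.19).

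Vim encodes vimentin, the filament of the connective tissue and vessel cells that lie between fibres. Its level was 6.05, 5.88 and 6.27 in Dysf -/- TA and 5.73, 5.99 and 6.61 in control TA. It was 5.86, 6.51 and 6.13 in Dysf -/- QF and 6.60, 6.56 and 5.84 in control QF, so the replicates of a group spread as widely as the groups. Dysf -/- minus control was -0.17 ± 0.35 in QF (95% interval -0.93 to 0.60) and -0.04 ± 0.35 in TA (interval -0.81 to 0.72). TA minus QF was -0.10 ± 0.35 in Dysf -/- mice and -0.22 ± 0.35 in control mice, and none of these passed (limma adjusted p 0.842 or more).

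Beside these Vim values, 12 probe sets of 7 fibroblast marker genes had a median difference of 0.62 in QF, where 10 were positive and 1 was called higher in Dysf -/- mice (6 at an unadjusted p under 0.05), and of 0.30 in TA, where 11 were positive and none was called (3 unadjusted). When same-numbered arrays of a muscle were paired as a block, 7 of the 12 were called in QF and 4 in TA. That fit called 273 of all 10331 probe sets in QF and 159 in TA, against 47 and 42 without the block. Over all tested probe sets the medians were -0.01 in QF and -0.00 in TA. Without the block, 6.77% of them had an unadjusted p under 0.05 in QF and 4.82% in TA. Summed over the list, fibroblast markers gave 32936 to 44819 in Dysf -/- TA, against 24784 to 31773 in control TA, and 31919 to 41668 in Dysf -/- QF, against 20732 to 26641 in control QF. The part of these cells in the Vim values was not tested.

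Krt18 was above the floor on 1 of its probe sets, and Krt8 was not. Krt18 had levels of 5.96, 5.34 and 5.29 in Dysf -/- TA and 5.17, 5.84 and 5.84 in control TA. It had 5.84, 5.13 and 5.04 in Dysf -/- QF and 5.004 to 6.04 in control QF, and all groups overlapped. Dysf -/- minus control was -0.35 ± 0.38 in QF and -0.09 ± 0.38 in TA, TA minus QF was 0.19 ± 0.38 in Dysf -/- mice and -0.06 ± 0.38 in control mice, and none passed (limma adjusted p 0.949 or more). The other Krt18 probe set was at the floor on all arrays with deposited intensities of 1 to 25.2. Krt8, the partner of Krt18 in simple epithelia, was at the floor on all 12 arrays with deposited intensities of 4.9 to 16.9.

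Between genotypes, 0 of the 7 tested member probe sets were called by limma in QF (1 at an unadjusted p under 0.05), against 0.455% of all probe sets (6.77% unadjusted). In TA 0 of 7 were called (0 at an unadjusted p under 0.05), against 0.407% of all (4.82% unadjusted). Averaged over both muscles 0 of 7 were called (0 unadjusted), against 1.09% of all (7.63% unadjusted), with differences from -0.22 for Krt18 to 0.15 for Lmna _at. Between the muscles of Dysf -/- mice 0 of 7 were called (1 unadjusted, Lmnb1), against 0.300% of all (5.72% unadjusted). For the interaction 0 of 7 were called (2 unadjusted, Nes and Lmna _s_at), against 0.0678% of all (3.05% unadjusted). A count of 0 among 7 is near these shares. For Vim, Lmnb1 and Krt18 the SE was 0.35 to 0.38, and for Des, Nes and Lmna _s_at it was 0.15 to 0.18. When same-numbered arrays of a muscle were paired as a block, 0 of 7 were again called between genotypes and for the interaction. Unadjusted limma p-values under 0.05 in that fit were 0.00165 for Lmna _s_at in QF, and 0.0271 for Nes and 0.0424 for Des in TA. For the interaction they were 0.0016 for Lmna _s_at and 0.00956 for Nes. The share of all probe sets at such p-values is not given for that fit, so these values cannot be set against it. The paired fit called 273 of all 10331 probe sets in QF and 159 in TA, against 47 and 42 without the block.

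**Figure D3:**
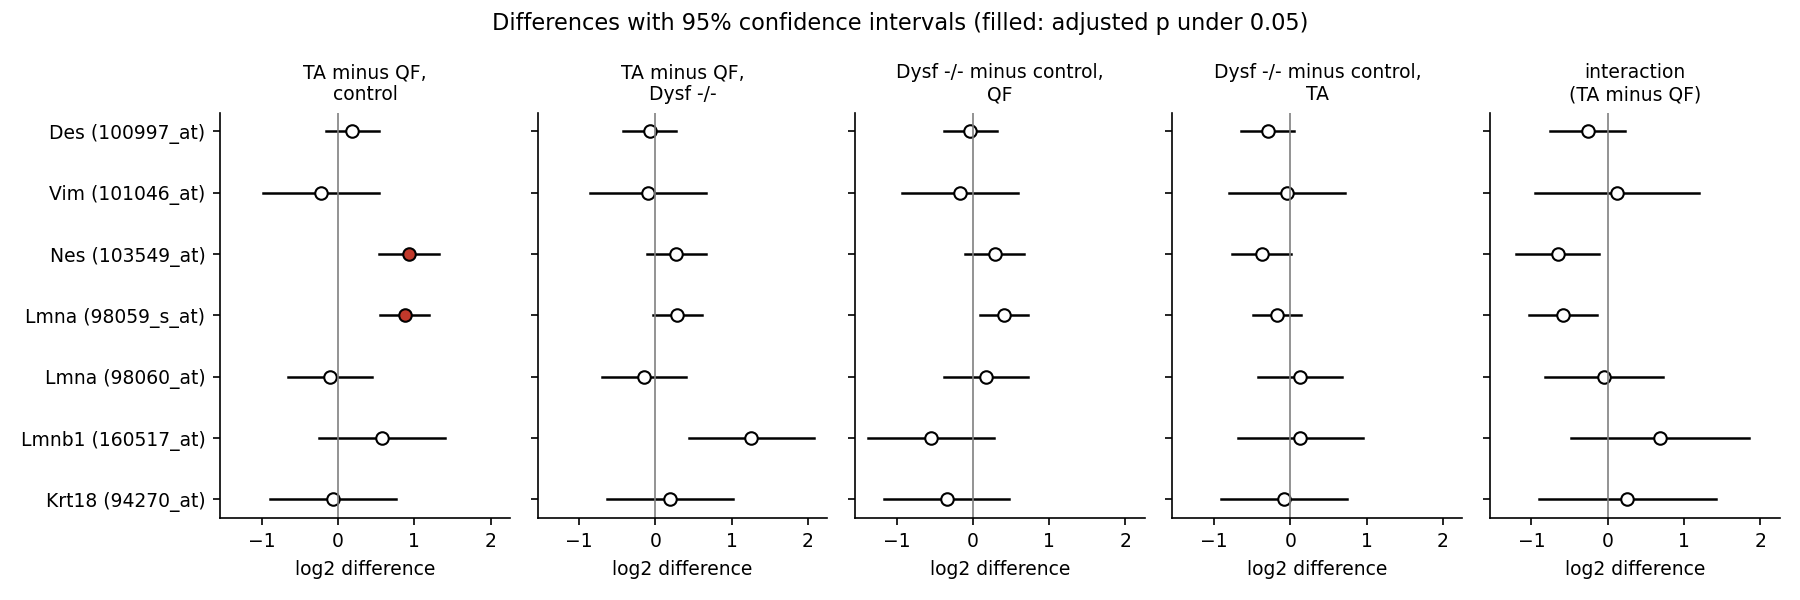
Differences (log2, points) of the 7 tested probe sets with 95% confidence intervals (lines) in 5 comparisons; filled points passed at an adjusted p under 0.05. Nes (0.93) and Lmna _s_at (0.87) are filled in TA minus QF of control mice, and no point is filled elsewhere.

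Marker levels of other cell types are given beside the difference of Nes and Lmna. Nestin is also known from endothelium, and of 11 tested endothelial probe sets, 6 were positive in TA minus QF of Dysf -/- mice (median 0.01, none called, 1 at an unadjusted p under 0.05), against 10 of 11 in control mice (median 0.43, none called, 2 unadjusted). Their summed level was 2067 to 2354 in Dysf -/- TA, 2257 to 2441 in control TA, 2183 to 2267 in Dysf -/- QF and 1771 to 2153 in control QF, and all 12 endothelial probe sets on the array were above the floor on some array. Over all tested probe sets, 5.72% had an unadjusted p under 0.05 in TA minus QF of Dysf -/- mice and 9.86% in control mice. The control groups did not overlap in the endothelial sum, and the highest array was a control TA one and the lowest a control QF one. Beside this, 8.16% of all tested probe sets had control TA above control QF without overlap. The part of endothelium in the result was not tested.

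Markers of myoblasts and immature fibres, where nestin is also made, did not share this direction. Of 14 tested probe sets, 4 were positive in TA minus QF of Dysf -/- mice (median -0.44) and 4 in control mice (median -0.25), and none was called (2 at an unadjusted p under 0.05 in Dysf -/- and 3 in control mice). Their sums were 18345 to 28462 in Dysf -/- TA, 16832 to 23989 in control TA, 27367 to 35436 in Dysf -/- QF and 26030 to 33699 in control QF, and 1 of 15 probe sets (Ncam1) was never above the floor. Of markers of dividing cells, which are rich in lamin B1, 7 of 9 probe sets were positive in QF and 8 of 9 in TA for Dysf -/- minus control (medians 0.35 and 0.35, none called, 4 and 2 unadjusted), beside a Lmnb1 difference of -0.55 ± 0.38 in QF and 0.13 ± 0.38 in TA. Macrophage sums were 2493 to 2556 in Dysf -/- TA, against 2048 to 2221 in control TA, and 2495 to 2643 in Dysf -/- QF, against 1703 to 2057 in control QF. Of 8 tested macrophage probe sets 7 were positive in each muscle for Dysf -/- minus control, but none was called in QF (3 at an unadjusted p under 0.05), and in TA the 1 called was lower, a Cd68 probe set (-1.27 ± 0.19, limma adjusted p = 0.0104). That probe set was also called in TA minus QF of control mice (1.603 ± 0.19, limma adjusted p = 0.000931), where Nes and Lmna were called. In that comparison 1 of 12 fibroblast, 1 of 12 muscle fibre and 0 of 6 mural probe sets were called higher, against 0.407% of all. Averaged over both muscles, 1 of 8 macrophage probe sets was called higher in Dysf -/- mice, while 1.09% of all were called in either direction. On the array 2 of 12 macrophage probe sets (Lyz2 and another of Cd68) and 3 of 12 dividing cell ones (Bub1) were never above the floor. Over all tested probe sets, 6.77% had an unadjusted p under 0.05 in QF and 4.82% in TA for Dysf -/- minus control. For TA minus QF the shares were 5.72% in Dysf -/- mice and 9.86% in control mice. Pairing same-numbered arrays of a muscle called 273 of all 10331 probe sets in QF and 159 in TA. In that fit 3 macrophage probe sets were called in QF and 2 in TA, and 1 of the dividing cell probe sets in QF. The part of these cells in the member values was not tested.

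**Figure D4:**
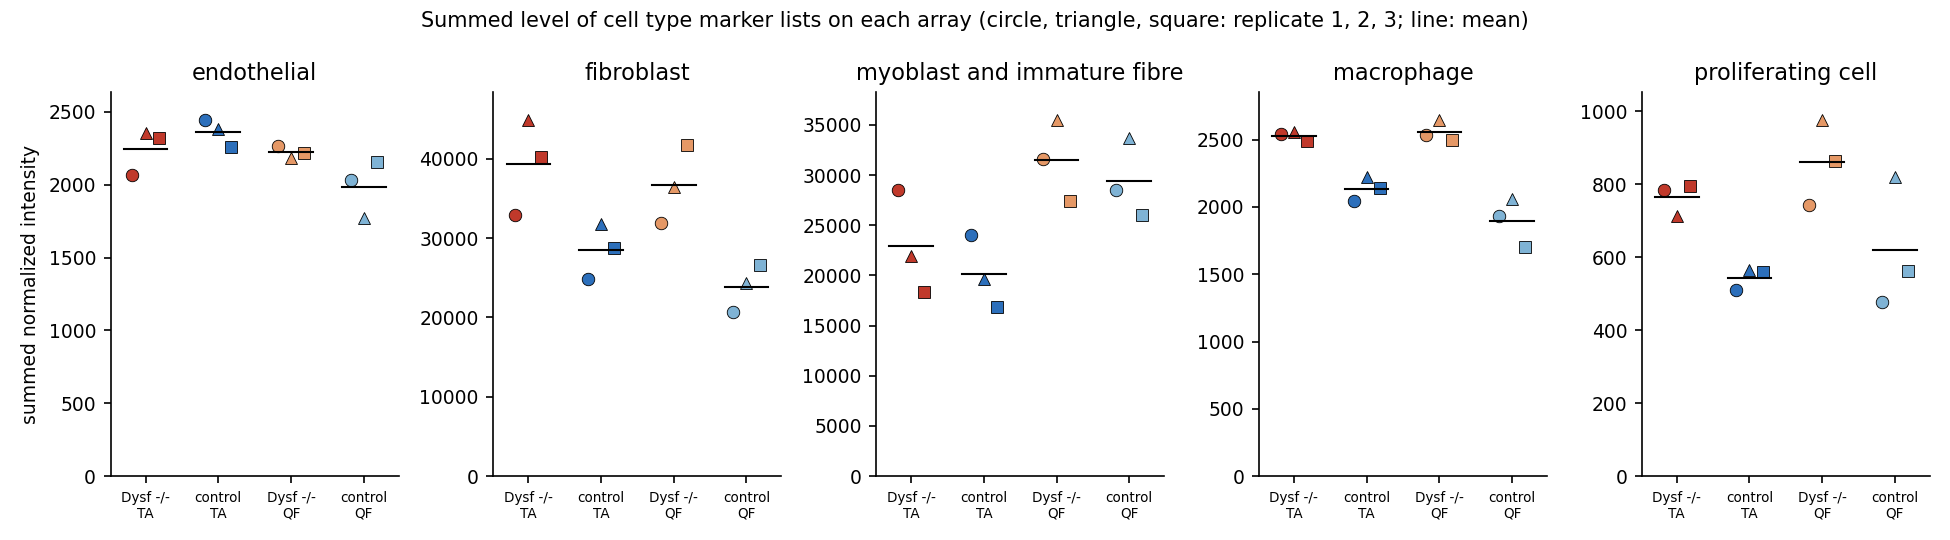
Summed normalized intensity (y axes from 0, each with its own range) of 5 cell type marker lists on each array by group; symbols give the replicate number and lines the group mean. The endothelial sum is highest in control TA (2257 to 2441) and lowest in control QF (1771 to 2153), and fibroblast and macrophage sums are higher in Dysf -/- than in control arrays of the same muscle.

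The other genes of the pathway were read from 3 lists. Of 22 other intermediate filament genes, 14 were tested on 16 probe sets, and limma called none of them in any of the 6 comparisons, with 1 or 0 at an unadjusted p under 0.05 in each. The list medians were 0.08 in QF and 0.07 in TA for Dysf -/- minus control, and -0.09 in Dysf -/- and -0.03 in control mice for TA minus QF. Krt1, a keratin of the outer skin, gave 1.33 ± 0.47 in TA for Dysf -/- minus control (limma adjusted p = 0.655). Lmnb2, the second B-type lamin gene, gave 0.84 in QF and 0.50 in TA (adjusted p = 0.98 and 1).

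Of 18 genes of the nuclear lamina and its partners in the envelope, 9 were tested on 12 probe sets. Limma called none in any comparison. In TA 4 had an unadjusted p under 0.05 for Dysf -/- minus control, against 4.82% of all tested probe sets. These were Icmt, a methyltransferase in the processing of prelamin tails (-1.25 ± 0.36, adjusted p = 0.369), and Emd, the membrane protein emerin that binds lamins (-0.49 ± 0.17, adjusted p = 0.622). The others were Sun2, which links lamins to the outer nuclear membrane (-0.50 ± 0.18, adjusted p = 0.699), and 1 of 3 probe sets of Tmpo, a family of lamin-binding proteins (0.60 ± 0.22, adjusted p = 0.74). The other Tmpo probe sets gave -0.06 and -0.15. When same-numbered arrays of a muscle were paired as a block, Sun2 passed in TA (limma adjusted p = 0.0301), and averaged over both muscles Sun2 (-0.45, adjusted p = 0.00484), Icmt (-1.01, adjusted p = 0.0357) and that Tmpo probe set (0.47, adjusted p = 0.0215) passed. That fit called 159 of all 10331 probe sets in TA and 474 averaged over both muscles, against 42 and 113 without the block. In TA minus QF of control mice Emd gave 0.45 ± 0.17 without passing (limma adjusted p = 0.396).

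Of 20 linkers, chaperones and ligases of intermediate filaments, 11 were tested on 16 probe sets. In TA 2 of the 16 fell in Dysf -/- mice, 14 did not pass, and 13 were negative (median -0.29, against -0.00 over all probe sets), while 0.155% of all probe sets were called lower. Cryab, the small heat shock protein that binds desmin and keeps it from aggregating, fell by 1.41 on the log2 scale on its _f_at probe set (SE 0.14, limma adjusted p = 0.00046), and its other probe set gave 0.06. Hspb8, a small heat shock protein that works with the co-chaperone Bag3, fell by 0.70 on its _at probe set (SE 0.13, limma adjusted p = 0.0303), and its other probe set gave -1.03 ± 0.76. The Hspb8 call was lost without any 1 of the 6 TA arrays (limma adjusted p 0.07 to 0.198), and that of Cryab was kept. Bag3 gave -0.59 ± 0.15 and -0.54 ± 0.15 on its 2 probe sets (adjusted p = 0.211 and 0.374), and both passed in the paired fit (limma adjusted p = 0.0334 and 0.0375), which made the count 4. The paired fit called 159 of all 10331 probe sets in TA, against 42 in the main fit.

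In QF none of the 16 linker and chaperone probe sets passed by limma (0 at an unadjusted p under 0.05), and 13 were negative (median -0.19). Averaged over both muscles, the _f_at probe set of Cryab alone fell (-0.77 ± 0.10, limma adjusted p = 0.00164). TA, at -1.41, gave most of that average. In the paired fit Hspb8 and both Bag3 probe sets fell as well. Between the muscles of control mice 1 of 16 was higher in TA, the _f_at probe set of Cryab, by 1.37 ± 0.14 (limma adjusted p = 0.000219). It was the same comparison in which Nes and Lmna were higher, and 0.407% of all probe sets were called higher there. Without control QF array 3 the actin and microtubule linker Macf1 passed too, which gave 0.84 ± 0.30 with all arrays (limma adjusted p = 0.374). In Dysf -/- mice none passed, and the Cryab _f_at probe set gave 0.09 ± 0.14. Plec, the linker of desmin to Z-discs and membranes, gave -0.27 in TA and -0.16 in QF for Dysf -/- minus control without passing (adjusted p = 1 in both).

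**Figure D5:**
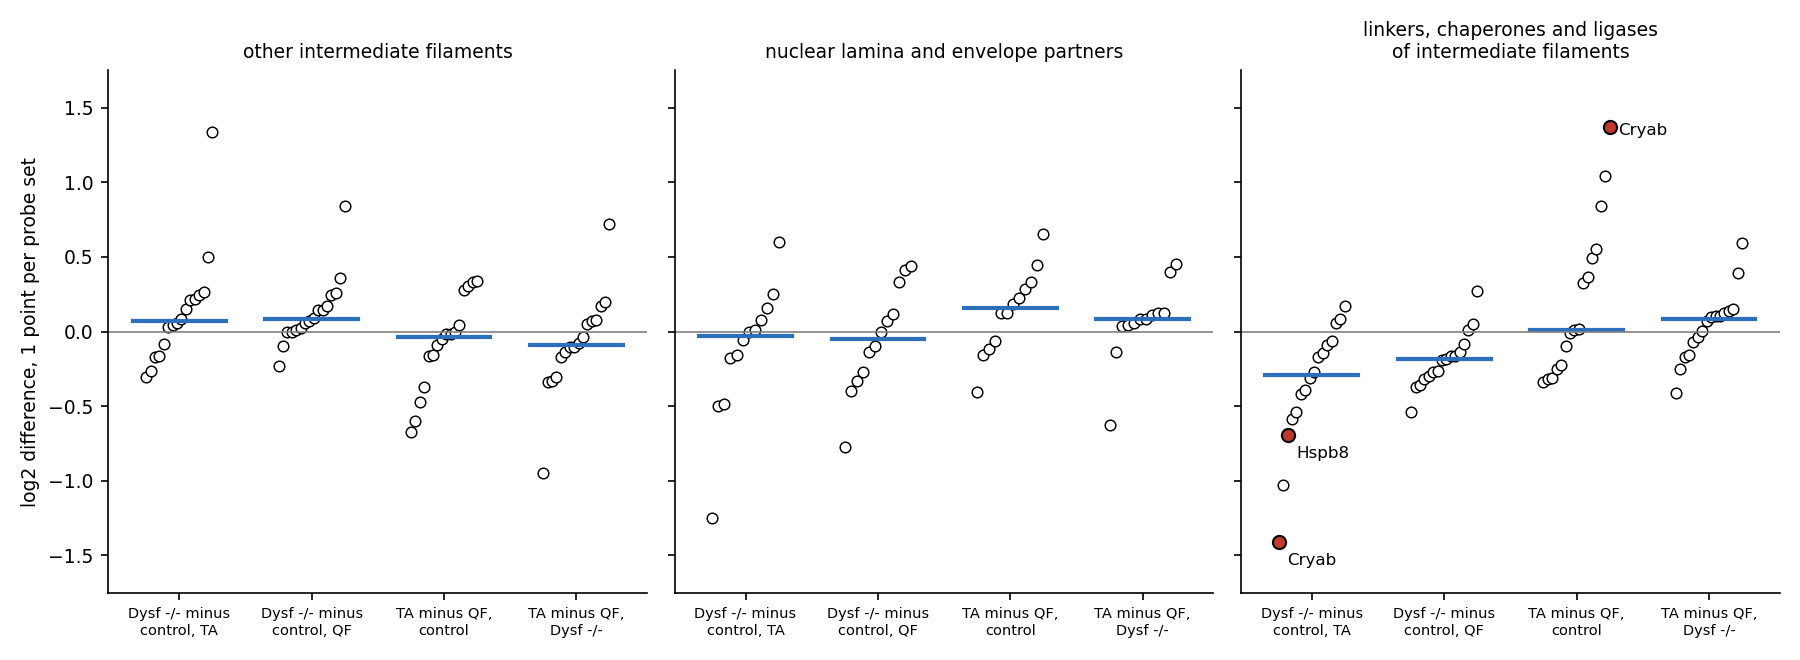
Differences (log2, y axis) of every tested probe set of 3 lists in 4 comparisons, ordered by size within each; horizontal lines are list medians and filled points passed at an adjusted p under 0.05. Cryab and Hspb8 are filled for Dysf -/- minus control in TA, Cryab is filled for TA minus QF in control mice, and no point of the first 2 lists is filled.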

How the data were processed

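Per the labels, total RNA of QF and TA muscle from 2 genotypes was measured on 12 arrays, and groups and replicate numbers came from the titles. The deposited values were linear intensities, 1 per probe set and array, scaled by the authors to a mean of 200.1 to 200.2 without the lowest and highest 2%, as the values show. The software behind them is not given in the sources used here. Medians differed 1.47-fold between arrays. They were 107.1 and 106.1 on the QF arrays numbered 2 of Dysf -/- and control mice, and 72.8 to 84.3 on the others. The 12422 probe sets left after removing 66 controls were therefore quantile normalized. Values under the 25th percentile (intensity 23.025) were raised to it before taking log2, and 10331 probe sets exceeded it on 3 arrays or more and entered the tests. No depth applies to arrays, and their number limits precision.

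The model held 1 mean per group (limma 3.58.1, R 4.3.3, intensity trend in the variance, 8 residual degrees of freedom, two-sided, Benjamini-Hochberg adjustment). The fit, but not the normalization or the floor, was tried on simulated data with independent noise on each array. That simulation did not hold the shared deviations of same-numbered arrays described below. Gene names came from the platform's annotation table, and a reference gene table (GRCm38.p6) changed 0 member symbols. Members and lists were chosen with earlier results of these data known. All members are reported. From the lists, those that passed are named (up to 4 per comparison by smallest p), with others of small p where none passed, Plec, Lmnb2, Emd, Sun2, Tmpo, Bag3, Macf1 and the difference between the Lmna probe sets being chosen after their values were seen. The 3 genes most like each member were taken by Pearson r.

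Arrays with the same replicate number deviated together between genotypes within a muscle (correlations of deviations from the group means 0.390 to 0.711 in QF and 0.114 to 0.231 in TA). The numbers were therefore taken to pair genotypes within a muscle, which no label states. Between muscles they did not (-0.141 to 0.123). The block changed no member's call in the genotype comparisons. Python 3.11.15 and matplotlib 3.10.9 drew the plots.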

Additional observations from a re-analysis of the deposited data

Results flagged for a closer look

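Cryab (_f_at probe set) was the gene among those named whose genotype difference differed between the muscles in a test of that difference: the interaction was -1.27 ± 0.20 on the log2 scale (limma adjusted p = 0.0339), with -1.41 in TA and -0.14 in QF. The call was lost in 15 of 21 alternatives (adjusted p 0.0167 to 0.358). The other Cryab probe set gave 0.32 ± 0.51. No member met this condition, and groups of 3 arrays are too small for a test of outlying arrays.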

How the results depend on the processing

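The 10 alternative settings and 12 fits without 1 array changed the member calls in TA minus QF of control mice only. Of 2 member probe sets called there, 0 were called without the intensity trend, 0 with the 6 control arrays alone and 0 without both QF arrays numbered 2. With the replicate block within each genotype, where same-numbered arrays did not deviate together, 1 was called (limma adjusted p = 0.0486 for Lmna and 0.18 for Nes). Leaving out 1 array gave 0 to 2. The call was lost in 6 of 22 alternatives for Lmna (difference 0.79 to 1.00, adjusted p 0.0103 to 0.125) and in 12 of 22 for Nes (0.83 to 1.07, 0.0202 to 0.212), and the direction held in all 22; the cause was not tested. Of the 40 other pairs of member and comparison, 0 were called under any alternative (the lowest adjusted p was 0.0559, Lmna in QF with the replicate block), and 15 changed sign in some alternative. With the authors' scaling the median of all probe sets in TA minus QF of control mice was -0.10, against 0 after quantile normalization, and Nes (0.92) and Lmna (0.98) were called. Calls over all probe sets in that comparison were 76, and 21 to 87 under the alternatives and 35 to 147 without 1 array. They were 47 (0 to 273, 21 to 82) and 42 (28 to 192, 14 to 45) between genotypes in QF and TA, 113 (56 to 474, 58 to 132) averaged, 31 (9 to 52, 19 to 38) between muscles of Dysf -/- mice and 7 (5 to 32, 4 to 8) for the interaction. Levels near the floor limit Lmnb1, Krt8 and Krt18. The Hspb8 call in TA was lost in 10 of 22 alternatives (adjusted p 0.00108 to 0.328), and those of Cryab in TA and between the muscles of control mice in none of 22.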
